A study of Mus musculus with 24 samples.

Results

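The sugar and monocarboxylate carriers of the proximal tubule were followed as 7 genes across 24 mouse kidney RNA-seq libraries. The genes were taken by symbol from a table of 28450 features, and each symbol matched 1 row. They were Slc5a1 (ENSMUSG00000011034), Slc5a2 (ENSMUSG00000030781), Slc5a8 (ENSMUSG00000020062), Slc5a10 (ENSMUSG00000042371), Slc5a12 (ENSMUSG00000041644), Slc2a2 (ENSMUSG00000027690) and Slc2a5 (ENSMUSG00000028976). The mice were C57BL/6, either wild type or NLPR3-/- (the labels' spelling of a knockout of Nlrp3, an inflammasome sensor). Both genotypes received 200 µl of saline or of glyoxylate (Gly, a precursor of oxalate, 75 mg/kg per day) in the peritoneum from day 1 to day 7. With 6 libraries each, this gave saline wild type, Gly wild type, saline knockout and Gly knockout. Neither the knockout allele nor the age or sex of the mice is given in the labels. The question behind the series is how kidney expression in calcium oxalate nephrocalcinosis differs between the genotypes.

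The proximal tubule takes back filtered glucose through sodium-coupled carriers on its brush border. Slc5a2 encodes SGLT2, the high-capacity carrier of the early segment, and Slc5a1 encodes SGLT1, the high-affinity carrier that acts further down the tubule. Slc2a2 encodes GLUT2, which lets glucose leave the cell on the blood side. Slc5a10 encodes SGLT5, a carrier of mannose and fructose, and Slc2a5 encodes GLUT5, a fructose carrier. Slc5a8 and Slc5a12 encode SMCT1 and SMCT2, sodium-coupled carriers of lactate and other monocarboxylates. Whole kidneys were sequenced, so fewer cells of a type and less RNA per cell cannot be told apart, and no value places a transcript in a segment.

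Values are FPKM (fragments scaled to transcript length and to the mapped fragments of the library), which sum to between 439749 and 539018 per library, and the depth behind them is unknown. Nlrp3 averaged 0.572 ± 0.224 FPKM in Gly wild type and 0.129 ± 0.0091 in Gly knockout (SD, n = 6). It was at 0.0663 ± 0.0168 in saline wild type and 0.0961 ± 0.0626 in saline knockout (SD, n = 6), where the knockout mean was the higher, and such levels are too low to check the saline labels. Y-linked transcripts were absent or nearly so in 5 of the 6 saline knockout libraries, and library 4 of that group and the other 18 libraries held them. Kap, an androgen-regulated kidney gene, was at 20310 FPKM in library 4 and at 6878 to 9172 in the 5. Differences that involve saline knockout therefore carry this split, and the sizes of those among the other 3 groups do not. The limma fit takes its spread from all 4 groups, so saline knockout enters the standard errors and p-values of those too. In Gly wild type, libraries 1 and 5 had the largest shares of ribosomal protein transcripts, at 8.97% and 5.82%, against a group median of 5.04%. Library 5 thus stood much closer to the rest than library 1. Their shares of mitochondrial transcripts were the lowest and the highest of the group, at 13.5% and 23.0%. Some transporter results that rest on any of these libraries are given with and without them. So are some counts of related genes for Gly libraries 1 and 5. Ratios of transporters are not given without Gly libraries 1 and 5, nor are interactions of transporters other than Slc5a1.

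In saline wild type the 7 transcripts ranked from Slc5a2 down to Slc5a1. Slc5a2 stood, at 88.3 to 157 FPKM (median 128.7), above 96.6% of the 13020 tested features. Slc5a10 followed at 67.6 to 80.8 FPKM (median 71.3). The lactate carriers came next and overlapped each other, with Slc5a8 at 47.5 to 59.98 (median 54.4) and Slc5a12 at 28.9 to 75.5 (median 51.1). The facilitative carriers Slc2a5, at 20.4 to 28.05 (median 24.6), and Slc2a2, at 20.6 to 27.3 (median 24.1), also overlapped. Slc5a1 was lowest of the 7, at 12.8 to 17.8 FPKM (median 16.5), and did not overlap Slc2a2. Slc5a12 differed most between libraries of this group, with a coefficient of variation of 29.2%, against 6.81% for Slc5a10 and 7.94% for Slc5a8.

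That order held only in part in the other groups. Slc5a2 was first in all of them, without overlap with the next gene in Gly wild type and saline knockout and with overlap in Gly knockout. Slc2a5 stood above Slc2a2 and Slc5a1 in saline wild type by its mean and was last in both Gly groups, and in Gly knockout its range overlapped that of Slc5a1. Slc5a8 came just after Slc5a10 in saline wild type and just before Slc2a5 in Gly wild type. Slc5a12 came just after Slc5a2 in Gly knockout.

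**Figure D1:**
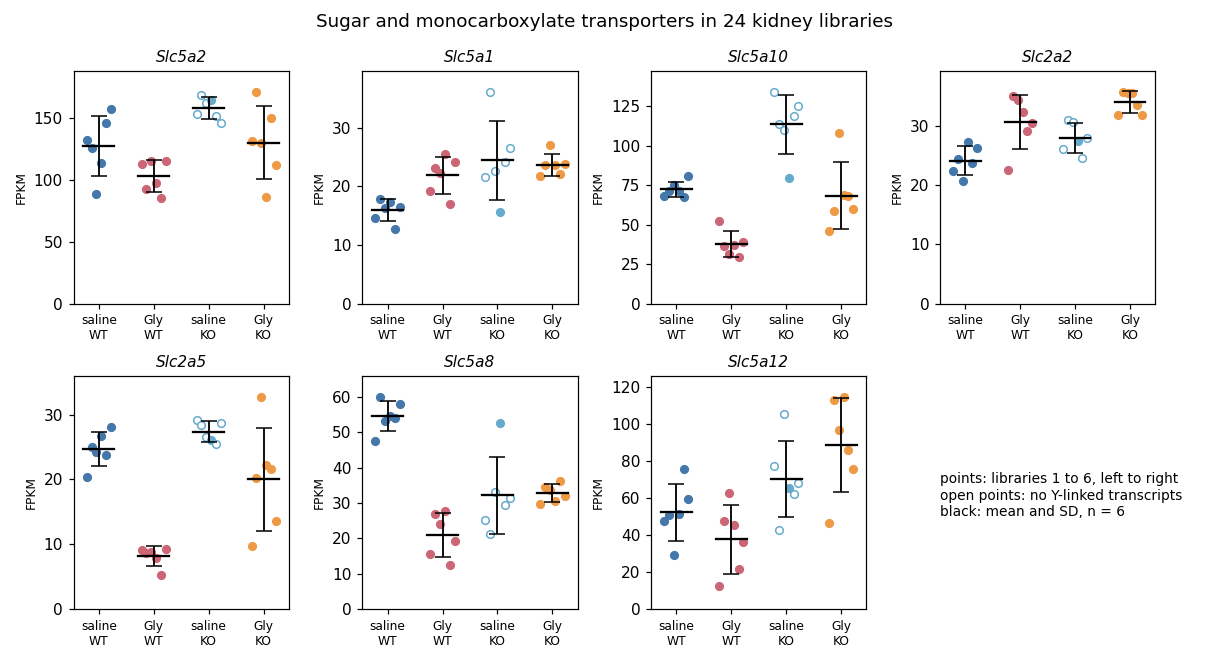
FPKM (linear axis from 0) of each of the 7 transporter genes in the 4 groups; each point is a library, bars show the mean and SD (n = 6), and open points lack Y-linked transcripts. Slc2a5 and Slc5a8 drop clear of saline wild type in Gly wild type, and in saline knockout the filled point (library 4) lies apart from the open points for Slc5a8, Slc5a10 and Slc5a1.

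The stretches before the transcription start of Slc2a5, Slc5a8 and Slc5a10, the 3 genes that fell most clearly under Gly in wild type, are shown to compare the DNA they start from. Sequences are 250 bases each, from RefSeq on build GRCm38.p6, read 5′ to 3′ on the gene's strand and ending at the base before the start, with CG pairs in capitals. A promoter entry was found for 5 of the 7 genes, and Slc5a10 has 2 starts.
Slc2a5 (chr4:150119094-150119343, plus strand): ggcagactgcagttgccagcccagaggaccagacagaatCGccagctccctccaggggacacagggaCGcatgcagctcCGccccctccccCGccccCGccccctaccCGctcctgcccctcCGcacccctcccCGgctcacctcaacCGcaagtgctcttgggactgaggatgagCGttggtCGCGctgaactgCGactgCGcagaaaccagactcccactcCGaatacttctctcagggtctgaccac
Slc5a8 (chr10:88885742-88885991, plus strand): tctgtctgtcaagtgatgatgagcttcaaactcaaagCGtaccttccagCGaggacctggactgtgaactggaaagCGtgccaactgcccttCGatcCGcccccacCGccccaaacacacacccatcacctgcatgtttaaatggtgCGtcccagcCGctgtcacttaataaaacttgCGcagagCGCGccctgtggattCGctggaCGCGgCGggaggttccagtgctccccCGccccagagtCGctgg
Slc5a10, upstream start (chr11:61720800-61721049, minus strand): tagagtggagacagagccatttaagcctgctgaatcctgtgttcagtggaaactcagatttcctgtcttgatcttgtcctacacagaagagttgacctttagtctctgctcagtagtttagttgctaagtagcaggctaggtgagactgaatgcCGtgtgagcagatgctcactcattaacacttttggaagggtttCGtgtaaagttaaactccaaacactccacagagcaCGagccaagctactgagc
Slc5a10, downstream start (chr11:61719986-61720235, minus strand): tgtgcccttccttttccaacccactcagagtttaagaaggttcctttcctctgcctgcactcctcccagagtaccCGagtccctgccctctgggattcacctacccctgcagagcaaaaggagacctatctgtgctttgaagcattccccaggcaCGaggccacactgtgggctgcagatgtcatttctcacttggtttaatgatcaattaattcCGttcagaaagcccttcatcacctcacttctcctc
Slc2a5 and Slc5a8 had 15 and 17 CG pairs, more than 72.7% and 76.5% of 32851 promoters of this length, whereas each Slc5a10 start had 3, more than 29.0%. Slc5a1 had 6 and Slc2a2 had 2, more than 49.6% and 18.8%, so the number of pairs did not separate the genes that fell from these. Marking CG pairs was chosen after the sequences were seen.

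The first comparison asked how the transporters changed under Gly in wild type. Slc2a5, Slc5a8 and Slc5a10 fell, Slc5a1 and Slc2a2 rose on the deposited scale, and Slc5a2 and Slc5a12 did not pass the test (limma on log2(FPKM + 1), Benjamini-Hochberg adjusted over 13020 features, threshold 0.05). Of all tested features 63.5% passed, 13.3% lower and 50.2% higher, so 3 of 7 lower stood against the first share and 2 of 7 higher against the second. The median log2 difference of the 7 was -0.59, against 0.26 for all features.

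The fructose carrier Slc2a5 went from 20.4 to 28.05 FPKM (median 24.6) in saline wild type to 5.31 to 9.31 (median 8.72) in Gly wild type. Every Gly library lay below every saline library, and the mean fell to 0.332 of its saline value. The log2 difference was -1.496 ± 0.178 (SE, adjusted p = 1.05e-07), lower than that of all but 1.02% of tested features. Slc5a8, the first of the lactate carriers, went from 47.5 to 59.98 FPKM (median 54.4) to 12.3 to 27.7 (median 21.7), again without overlap. Its log2 difference was -1.39 ± 0.17 (SE, adjusted p = 1.92e-07), and -1.14 without Gly wild-type libraries 1 and 5, which held its lowest values of 15.7 and 12.3 FPKM. Slc5a10 went from 67.6 to 80.8 FPKM (median 71.3) to 29.4 to 52.3 (median 36.9), a log2 difference of -0.94 ± 0.15 (SE, adjusted p = 9.42e-06). These 3 genes also fell under median-ratio scaling and quantile normalization of the libraries, with Slc2a5 at -1.79 and -1.78, Slc5a8 at -1.70 and -1.59, and Slc5a10 at -1.25 and -1.12.

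The glucose carriers moved far less. Slc5a1 was at 12.8 to 17.8 FPKM (median 16.5) under saline and 17.05 to 25.5 (median 22.7) under Gly, with 5 of 6 Gly libraries above every saline library (log2 difference 0.43 ± 0.13 SE, adjusted p = 0.00605). Slc2a2 was at 20.6 to 27.3 (median 24.1) and 22.6 to 35.03 (median 31.4), also with 5 of 6 above (0.33 ± 0.09 SE, adjusted p = 0.00256). Both rises were close to the 0.26 shift of the median feature. The share of mitochondrial transcripts went from 26.9 to 34.3% under saline to 13.5 to 23.0% under Gly, and its part in the shift was not tested. Neither gene passed once the shift was scaled out, at 0.13 and 0.023 with median-ratio scaling (adjusted p = 0.338 and 0.834) and 0.15 and 0.067 with quantile normalization (adjusted p = 0.312 and 0.569). Slc5a2 was at 88.3 to 157 FPKM (median 128.7) and 85.2 to 114.8 (median 105.0), with overlapping groups (-0.29 ± 0.14 SE, adjusted p = 0.0684). It passed as lower with median-ratio scaling (-0.60, adjusted p = 0.000726) and quantile normalization (-0.34, adjusted p = 0.0417), and on the deposited scale without saline wild-type library 3 (-0.39, adjusted p = 0.0121) or Gly knockout library 4 (adjusted p = 0.0373). Whether each of the 3 glucose carriers passed thus depended on the scaling.

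Slc5a12, the other lactate carrier, differed from Slc5a8 in its spread. It was at 28.9 to 75.5 FPKM (median 51.1) under saline and 12.3 to 62.7 (median 40.8) under Gly, and the groups overlapped (-0.59 ± 0.30 SE, adjusted p = 0.0940). Gly libraries 1 and 5 were the lowest, at 12.3 and 21.5 FPKM, and without them the difference was -0.094 (adjusted p = 0.748). It passed as lower with median-ratio scaling (-0.89, adjusted p = 0.00957), quantile normalization (-0.74, adjusted p = 0.0444), and without saline library 3 (-0.74, adjusted p = 0.0392) or Gly library 3 (-0.77, adjusted p = 0.0299).

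**Figure D2:**
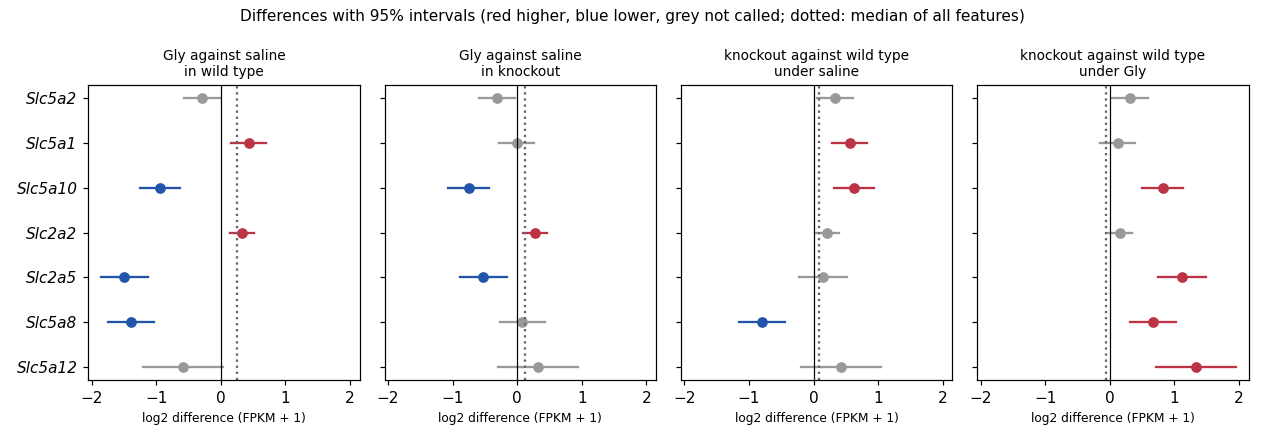
Log2 differences of FPKM + 1 (points) with 95% intervals for the 7 genes in 4 comparisons; red passed the test as higher, blue as lower, grey did not pass, and the dotted line is the median of all tested features. Slc2a5 stands at -1.50 under Gly in wild type and 1.12 in the comparison of the genotypes under Gly, and Slc5a1 and Slc2a2 lie near the dotted line in the first panel.

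Ratios of carriers within a library do not change when a library is multiplied by 1 factor, and 3 of them were compared on the deposited FPKM over 5 pairs of groups (15 two-sided exact permutation tests with 6 libraries on each side, smallest possible p = 0.0022). The ratio of the facilitative carriers, Slc2a2 over Slc2a5, was 0.980 ± 0.0809 in saline wild type and 3.89 ± 1.01 in Gly wild type (SD, n = 6), with no overlap. The log2 difference was 1.95 (exact permutation p = 0.0022, adjusted p = 0.013). Slc5a2 over Slc5a1 went from 8.15 ± 2.22 to 4.76 ± 0.758 (SD, n = 6; log2 difference -0.74, exact permutation p = 0.0043, adjusted p = 0.013), so SGLT2 transcripts fell relative to SGLT1 transcripts. Slc5a8 over Slc5a12 went from 1.13 ± 0.379 to 0.657 ± 0.312 (SD, n = 6; log2 difference -0.83, exact permutation p = 0.026, adjusted p = 0.049). That last call was lost when any of 10 of the 24 libraries was left out.

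The second comparison set Gly knockout against Gly wild type, where all 12 libraries held Y-linked transcripts. Slc5a12, Slc2a5, Slc5a10 and Slc5a8 were higher in the knockout and none of the 7 was lower, where 29.8% of all tested features passed, 8.37% higher and 21.4% lower. Slc5a1, Slc5a2 and Slc2a2 did not pass. The median log2 difference of the 7 was 0.67, against -0.063 for all features.

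Slc5a12 was at 12.3 to 62.7 FPKM (median 40.8) in Gly wild type and 46.7 to 114.3 (median 91.2) in Gly knockout, with 5 of 6 knockout libraries above every wild-type library. Its log2 difference of 1.33 ± 0.30 (SE, adjusted p = 0.00193) exceeded that of 99.8% of tested features, and was 0.84 (adjusted p = 0.0120) without Gly wild-type libraries 1 and 5. Slc2a5 was at 5.31 to 9.31 FPKM (median 8.72) in wild type and 9.69 to 32.7 (median 20.9) in knockout. The ranges did not overlap, but the knockout libraries differed among themselves, with a coefficient of variation of 39.8%. Its log2 difference was 1.12 ± 0.18 (SE, adjusted p = 7.56e-05).

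Slc5a10 was at 29.4 to 52.3 FPKM (median 36.9) and 46.2 to 108 (median 63.9), with 5 of 6 knockout libraries above all wild-type ones (0.82 ± 0.15 SE, adjusted p = 0.000369). Slc5a8 was at 12.3 to 27.7 FPKM (median 21.7) in wild type and 29.6 to 36.2 (median 32.9) in knockout, without overlap (0.67 ± 0.17 SE, adjusted p = 0.00495). Without Gly wild-type libraries 1 and 5 its difference was 0.42 (adjusted p = 0.0373). These 4 calls also held under both scalings, when saline libraries were dropped from the fit, and without any single library.

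For the glucose carriers no difference between genotypes under Gly passed on the deposited scale with all 24 libraries. Slc5a1 differed by 0.12 (95% interval -0.15 to 0.39, adjusted p = 0.528) and Slc2a2 by 0.16 (-0.028 to 0.34, adjusted p = 0.193). Slc5a2 differed by 0.31 (0.030 to 0.59, adjusted p = 0.0868), and passed with median-ratio scaling (0.38, adjusted p = 0.0446) and without Gly knockout library 4 (0.42, adjusted p = 0.0148). Intervals are not adjusted for the number of features. Within libraries, Slc2a2 over Slc2a5 was 1.94 ± 0.777 in Gly knockout (SD, n = 6), below the 3.89 of Gly wild type (log2 difference -1.05, exact permutation p = 0.0065, adjusted p = 0.014). Slc5a2 over Slc5a1 did not pass (5.52 ± 1.38 in knockout, SD, n = 6; log2 difference 0.19, exact permutation p = 0.32, adjusted p = 0.37). Slc5a8 over Slc5a12 was 0.401 ± 0.130 in knockout (SD, n = 6; log2 difference -0.67, exact permutation p = 0.041, adjusted p = 0.062), and passed without Gly wild-type library 3 or Gly knockout library 1.

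**Figure D3:**
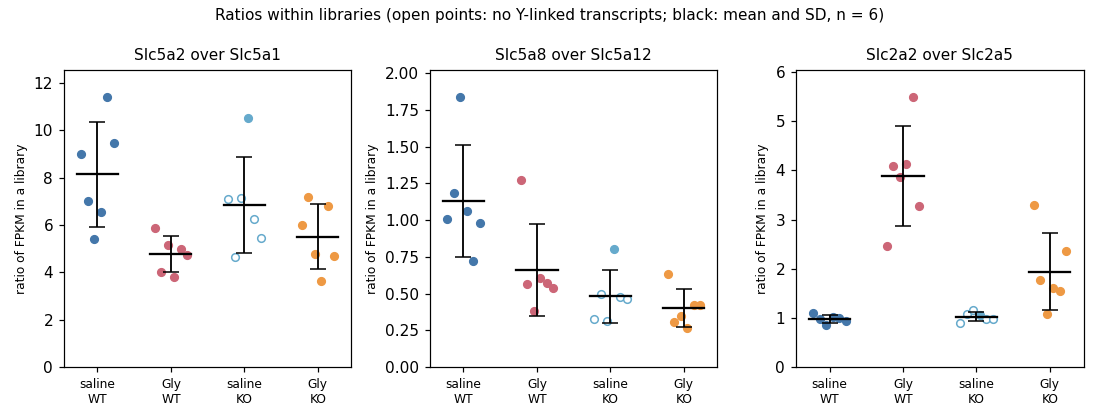
Ratios of FPKM of carrier pairs within each library (linear axis from 0), with the mean and SD of 6 libraries per group; open points lack Y-linked transcripts. Slc2a2 over Slc2a5 lies near 1 in both saline groups, between 2.46 and 5.50 in Gly wild type and between 1.09 and 3.29 in Gly knockout.

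Gly knockout libraries differed widely in Slc2a5 and Slc5a10, with coefficients of variation of 39.8% and 30.9%, and little in Slc2a2 (5.43%), Slc5a8 (7.50%) and Slc5a1 (7.86%). Slc2a5 was lowest in libraries 1 and 6, at 9.69 and 13.5 FPKM, and highest in library 3, at 32.7, with 20.2, 22.2 and 21.7 in libraries 2, 4 and 5. Slc5a10 was also lowest in library 1, at 46.2 FPKM, and highest in library 3, at 108. Havcr1, the tubule injury marker KIM-1, was highest in libraries 6 and 1, at 207.3 and 157.3 FPKM, followed by 106.7 in library 5 and between 39.1 and 46.6 in libraries 2, 3 and 4. The libraries with most Havcr1 were thus those with least Slc2a5. They also had the most Kap, a proximal tubule gene, at 13060 FPKM in library 1 and 9309 in library 6, against 950.6 to 4615 in the other 4. For Havcr1 all 6 remained below Gly wild type, where Havcr1 was 336.9 to 481.5 FPKM. With 6 libraries this is given as values, and its part in the differences was not tested.

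Set against saline wild type, Gly knockout differed in 4 of 7 transporters, 3 higher and 1 lower, where 45.6% of all features passed, 38.9% higher and 6.72% lower. Slc5a8 stayed lower, at 29.6 to 36.2 FPKM (median 32.9) against 47.5 to 59.98 (median 54.4), without overlap (log2 difference -0.72 ± 0.17 SE, adjusted p = 0.00169). Slc5a1 (0.55 ± 0.13 SE, adjusted p = 0.00162) and Slc2a2 (0.48 ± 0.09 SE, adjusted p = 0.000129) were higher in all 6 libraries than in any saline wild-type library. Both passed again with median-ratio scaling, at 0.32 and 0.24. Slc5a12 was higher by 0.75 ± 0.30 (SE, adjusted p = 0.0458). That call lay at the threshold: median-ratio scaling gave 0.50 (adjusted p = 0.187), and it was lost when any of 14 single libraries, Gly wild-type library 6 and saline knockout libraries among them, was left out. Slc5a2 (0.023), Slc5a10 (-0.13) and Slc2a5 (-0.38, adjusted p = 0.0868) did not pass. Slc2a5 did pass as lower with median-ratio scaling (-0.61, adjusted p = 0.00423), quantile normalization (-0.56, adjusted p = 0.0107) and without Gly knockout library 3 (-0.53, adjusted p = 0.0104), and Slc5a10 with median-ratio scaling (-0.37, adjusted p = 0.0442).

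The saline groups were compared next, with the split in Y-linked transcripts in view. Slc5a1 and Slc5a10 were higher and Slc5a8 lower in saline knockout than in saline wild type, 3 of 7, where 10.6% of all features passed, 6.92% higher and 3.67% lower. Slc5a8 was at 21.2 to 52.6 FPKM (median 30.4) in knockout, a log2 difference of -0.80 ± 0.17 (SE, adjusted p = 0.00366). The 5 libraries without Y-linked transcripts held 21.2 to 33.2 FPKM, and library 4, which has them, held 52.6, inside the saline wild-type range. Slc5a10 was at 79.6 to 134 FPKM (median 116.3), higher by 0.63 ± 0.15 (SE, adjusted p = 0.00931). Its 5 libraries without Y-linked transcripts held 109.8 to 134 and library 4 held 79.6. Slc5a1 was at 15.6 to 36.1 FPKM (median 23.4), higher by 0.56 ± 0.13 (SE, adjusted p = 0.00730), with 21.6 to 36.1 in the 5 and 15.6 in library 4.

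For these 3 genes, library 4 lay on the wild-type side of the other 5. Without those 5, which leaves 1 saline knockout library whose spread is taken from the other groups, the differences were -0.0485 for Slc5a8, 0.14 for Slc5a10 and -0.0155 for Slc5a1 (adjusted p = 0.9999 each). Slc5a2, Slc5a12, Slc2a2 and Slc2a5 did not pass, and for these library 4 lay inside the range of the other 5. The ratio of Slc5a8 over Slc5a12 was 0.480 ± 0.177 in saline knockout against 1.13 ± 0.379 in saline wild type (SD, n = 6; log2 difference -1.25, exact permutation p = 0.0043, adjusted p = 0.013), and -0.43 with library 4 alone. Genotype and the absence of Y-linked transcripts cannot be told apart in this comparison.

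Within the knockout, Slc5a10 and Slc2a5 were lower and Slc2a2 was higher under Gly, 3 of 7, where 29.5% of all features passed, 5.72% lower and 23.7% higher. Slc5a10 went from 79.6 to 134 FPKM (median 116.3) to 46.2 to 108 (median 63.9; log2 difference -0.75 ± 0.15 SE, adjusted p = 0.000588). With library 4 as the only saline knockout library the difference was -0.27 (adjusted p = 0.604). Slc2a5 went from 25.4 to 29.1 FPKM (median 27.5) to 9.69 to 32.7 (median 20.9), with 5 of 6 Gly libraries below all saline ones and 1 above (-0.53 ± 0.18 SE, adjusted p = 0.0287). The Slc2a5 call was lost without saline knockout library 1 or 6 or Gly knockout library 1 (-0.35) or 6, with adjusted p between 0.0512 and 0.0830, and with only the 12 knockout libraries in the fit (adjusted p = 0.0667). Slc2a2 was at 24.6 to 30.96 FPKM (median 27.7) and 31.8 to 35.7 (median 34.5), without overlap (0.28 ± 0.09 SE, adjusted p = 0.0216), and did not pass with median-ratio scaling (0.13, adjusted p = 0.318), quantile normalization (0.13, adjusted p = 0.337) or without saline knockout library 5 (adjusted p = 0.0573). Slc5a8 did not pass (0.081 ± 0.17 SE), and stood at -0.67 (adjusted p = 0.151) with library 4 as the only saline knockout library. Slc5a12 (0.33 ± 0.30 SE), Slc5a1 (-0.0057 ± 0.13 SE) and Slc5a2 (-0.31 ± 0.14 SE, adjusted p = 0.0910) did not pass. Slc5a2 did with median-ratio scaling (-0.46, adjusted p = 0.0158) and without Gly knockout library 2 (-0.39, adjusted p = 0.0304).

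The response to Gly differed between genotypes, by the interaction in the same fit, for Slc5a8 (1.47 ± 0.24 SE, adjusted p = 0.000182) and Slc2a5 (0.97 ± 0.25 SE, adjusted p = 0.00671). Of all features 26.6% passed this test, 6.28% as higher and 20.3% as lower. Without the 5 saline knockout libraries lacking Y-linked transcripts, the values were 0.72 (adjusted p = 0.371) and 1.04 (adjusted p = 0.338). The interaction of Slc5a8 thus was smaller with saline knockout library 4 alone, and that of Slc2a5 was not. Slc5a12 (0.91, adjusted p = 0.116), Slc5a1 (-0.44, adjusted p = 0.0819), Slc5a10 (0.19, adjusted p = 0.555), Slc2a2 (-0.051) and Slc5a2 (-0.0207) did not pass. Slc5a1 passed without saline knockout library 4 (-0.55, adjusted p = 0.0123), Gly wild-type library 5 (-0.50, adjusted p = 0.0387) or Gly wild-type libraries 1 and 5 (-0.56, adjusted p = 0.0185).

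The transporters were then set beside other genes of the tubule. Of 20 proximal tubule markers, among them the endocytic receptor genes Lrp2 and Cubn and the phosphate carrier gene Slc34a1, 17 fell under Gly in wild type (median log2 difference -0.98). In Gly knockout 15 of 20 were higher than in Gly wild type (median 0.71). Without Gly wild-type libraries 1 and 5 the counts were 17 and 13 (medians -0.88 and 0.59). The fall was not limited to proximal markers: of 5 distal convoluted tubule markers 4 fell and 1 rose in wild type (median -0.69). Under Gly in knockout 4 of these 5 fell (median -0.77), whereas of the 20 proximal markers 6 fell and 3 rose (median -0.18). That comparison carries the split of saline knockout in Y-linked transcripts. Of 5 thick ascending limb and 7 collecting duct markers, 1 and 2 fell in wild type (medians 0.099 and 0.026). In each of these lists 1 marker rose, and 2 without Gly wild-type libraries 1 and 5. Of all tested features, 13.3% fell and 50.2% rose in wild type. Kap exceeds the sum of the other proximal markers in each saline wild-type library. Without Kap, the proximal markers summed to 7217 to 8907 FPKM in saline wild type and 3105 to 4428 in Gly wild type. In Gly knockout they summed to 5414 to 6970 FPKM. All 7 macrophage markers rose in wild type under Gly, from a sum of 31.9 to 53.8 FPKM to 238.3 to 699.6, and reached 127.9 to 387.7 in Gly knockout. Of these, 1 was under 1 FPKM in every saline wild-type library, with a mean of 0.657. That marker averaged 8.42 FPKM in Gly wild type and met the filter through groups other than saline wild type. The part of these shifts in the transporter values was not tested. Slc2a5 and Slc5a8 fell by more than the proximal marker median, Slc5a10 by about as much, and Slc5a1 and Slc2a2 did not fall. Slc5a2 (-0.29) and Slc5a12 (-0.59) were lower by less than that median and did not pass. Single proximal markers ranged from -2.06 to 0.25, and Slc2a5 and Slc5a8 lay inside that range.

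Markers of other organs that use the same carriers were examined as well. Of 8 small intestine markers, Fabp2, Lct, Sis, Alpi, Cdh17 and Muc2 were under 1 FPKM in every library. The other 2, Vil1, a brush-border gene that the kidney also expresses, and Apoa4, averaged 54.5 and 7.25 FPKM in saline wild type. Of 5 pancreas markers in the table, Ins1, Ins2, Cpa1 and Prss1 were under 1 FPKM in every library, and Cela1 averaged 55.7 FPKM in saline wild type and 49.2 to 66.6 in the other groups. The 8 liver markers summed to 94.2 to 328.8 FPKM in saline wild type, 64.4 to 132.9 in Gly wild type, 50.6 to 156.7 in saline knockout and 107.6 to 481.1 in Gly knockout. Their part in the level of Slc2a2, which the liver also expresses, was not tested.

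Relatives of the 7 genes were examined in the same fits, on the deposited scale. Genes of these and the other lists were not examined under the other scalings. Their rises under Gly in wild type stand beside a median shift of 0.26 over all features. Of 4 tested SLC5 relatives, 3 fell, with Slc5a9 at -0.42, Slc5a6, a vitamin carrier, at -0.48 (-0.32 without Gly wild-type libraries 1 and 5, adjusted p = 0.0873) and Slc5a11, an inositol carrier, at -0.27. The others, Slc5a4a, Slc5a4b, Slc5a5 and Slc5a7, averaged under 0.1 FPKM in each group and were not tested. Of 6 tested SLC2 relatives 4 fell (2 without those libraries), and Slc2a1, which encodes the widely expressed glucose carrier GLUT1, rose. Slc2a1 went from 12.4 ± 0.870 to 28.9 ± 4.16 FPKM (SD, n = 6; log2 difference 1.16 ± 0.10 SE, adjusted p = 7.55e-10), and was at 23.1 ± 3.30 in Gly knockout, lower by 0.31 than in Gly wild type (adjusted p = 0.0222). It thus moved opposite to Slc2a5 in both comparisons.

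Among 14 tested SLC16 genes, the proton-coupled monocarboxylate carriers with their chaperones Bsg and Emb, 7 fell and 1 rose under Gly in wild type (median -0.40). Slc16a14 fell by 1.52 (0.96 without Gly wild-type libraries 1 and 5), Slc16a9 by 1.40, Slc16a4 by 1.17 and Slc16a13 by 1.01 log2 units, and Emb rose by 0.62. Slc16a1, which encodes the lactate carrier MCT1, was at 9.02 ± 2.72 and 7.03 ± 0.813 FPKM (SD, n = 6) and did not pass (-0.28, adjusted p = 0.139). In Gly knockout 5 of 14 were higher than in Gly wild type and none lower (median 0.23), and 3 of 14 without those libraries (median 0.095). Among the 5 were Slc16a4 (1.15), Slc16a9 (0.98) and Slc16a14 (1.11), the last not without those libraries (0.55, adjusted p = 0.0817).

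Partners of the carriers went both ways. Pdzk1ip1 encodes MAP17, the accessory protein of SGLT2, and rose under Gly in wild type from 304.6 ± 23.1 to 471.1 ± 137.1 FPKM (SD, n = 6; 0.59 ± 0.13 SE, adjusted p = 0.000253; 0.38 without Gly wild-type libraries 1 and 5). Pdzk1, a brush-border scaffold, fell by 0.57. Hnf4a, which encodes a transcription factor of the tubule, did not pass in wild type (-0.16, adjusted p = 0.139) and was higher by 0.30 in Gly knockout than in Gly wild type (adjusted p = 0.0156; 0.16, adjusted p = 0.0968, without those libraries). Of 7 tested genes in this list, 4 fell and 1 rose in wild type. Rsc1a1 was below the filter.

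The sodium gradient that drives the SLC5 carriers depends on the sodium pump and on sodium exchangers. Of 6 such genes 3 fell under Gly in wild type, among them Slc4a4 (-0.74) and Slc9a3 (-0.51), and the pump subunit gene Atp1b1 did not pass (-0.0493). In Gly knockout 4 of 6 were higher than in Gly wild type, among them Slc4a4 by 0.86, Slc9a3 by 0.71 and Atp1b1 by 0.31. Without Gly wild-type libraries 1 and 5, the counts were 2 and 3 of 6. Slc4a4 was then at -0.45 in wild type and Slc9a3 at -0.20 (adjusted p = 0.122), and the differences between genotypes were 0.56 for Slc4a4, 0.40 for Slc9a3 and 0.21 for Atp1b1.

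Enzymes that make or use the transported substrates were the last group. All 5 genes of glucose release fell in wild type (median -1.36), with G6pc at -3.19, Pck1 at -3.12, Pcx at -1.36 and Fbp1 at -1.29, and all 5 were higher in Gly knockout (median 1.01). Among 7 genes of glucose use and its control, Hk2 (1.02), Pfkp (0.82) and Pkm (0.46) rose in wild type, and Pfkm (-0.35) fell. Pdk4 (-2.895), which encodes a kinase that inhibits pyruvate dehydrogenase and so restrains glucose use, also fell. Hk2 averaged 0.179 FPKM in saline wild type and 1.42 in Gly wild type, and only the latter group averaged over 1 FPKM, so it entered the test through the group where it is high. Of 6 genes of fructose use and the polyol path 5 fell (4 without Gly wild-type libraries 1 and 5), with Sord at -1.22, ketohexokinase (Khk) at -0.82 and Tkfc at -0.59. In Gly knockout 3 of 6 were higher than in Gly wild type, among them Sord by 0.87 and Khk by 0.38. Of 8 genes of lactate and ketone body use, 6 fell in wild type, among them Acat1 (-1.49), Bdh1 (-1.24) and Oxct1 (-1.03). Ldhb rose by 0.48 on the deposited scale (0.36 without Gly wild-type libraries 1 and 5). The lactate dehydrogenase gene Ldha did not pass (0.0126). All these lists, and the 7 transporters, were chosen with earlier results of these data known.

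**Figure D4:**
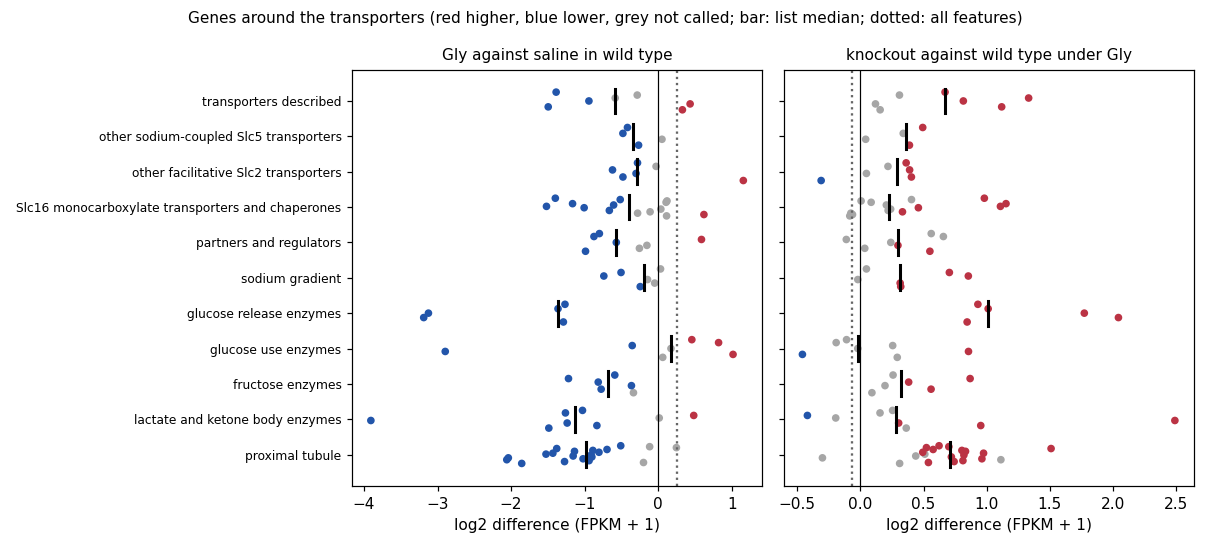
Log2 differences of FPKM + 1 for the 7 transporters and 10 lists of related genes, for Gly against saline in wild type (left) and for Gly knockout against Gly wild type (right); each point is a gene, black bars are list medians and the dotted line is the median of all features. Medians of the transporters are -0.59 on the left and 0.67 on the right, beside -0.98 and 0.71 for proximal tubule markers.

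Across the 24 libraries, the pair most alike among the 7 was Slc5a10 and Slc2a5, with Pearson r = 0.91 on the log2 scale, and r = 0.76 after group means were removed. The other pairs lay between -0.50 (Slc5a1 and Slc5a8) and 0.65 (Slc5a8 and Slc2a5). After group means were removed, Slc5a12 and Slc2a2 gave r = 0.72 and Slc5a8 and Slc5a12 gave r = 0.55. Slc5a2 and Slc5a1 were close to unrelated, at r = 0.0996 over all libraries and -0.0403 within groups. These values describe the same 24 libraries, which share their groups and scaling, and carry no test.

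By the same measure, the named genes most like each transporter were as follows. Slc5a10 was closest to Acaa2 (r = 0.97), Mccc2 (0.95) and Hadhb (0.94), of which Acaa2 and Hadhb encode enzymes of mitochondrial fatty acid oxidation. Slc2a5 was closest to Decr2 (0.96), Coq8a (0.96) and Tmie (0.96). For Slc5a8 these were Nudt12 (0.95), Hykk (0.94) and Cndp1 (0.94). Slc5a2 was closest to the phosphate carrier gene Slc34a3 (0.87), Slc5a11 (0.83) and Rfng (0.83). The genes most like Slc5a1 were Impa2 (0.87), Synpo (0.87) and Mfsd6l (0.85), those most like Slc5a12 were AW549877 (0.93), Gzf1 (0.91) and Atp6v0a4 (0.91), and those most like Slc2a2 were Myrf (0.92), Steap2 (0.89) and Epb41l3 (0.88). Within groups these coefficients lay between 0.66 and 0.91.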

How the data were processed

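RNA-seq was made from kidneys in 4 groups of 6 libraries, with groups and replicate numbers taken from the sample titles. The authors deposited FPKM values, 24 columns in 1 table. Bowtie 0.12.2 and mouse builds mm8 and mm9 appear, without a role, in the submitters' processing notes. Program, annotation and strandedness behind the FPKM: not given in the sources used here. Low values showed no steps of whole reads: at most 2.74% of features averaging under 0.05 FPKM shared 1 ratio between 2 libraries, so no reads were recovered and the depth is unknown. The labels do not say that each sample is a separate animal, so the p-values cover the variation among these samples, which may be technical.

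One limma 3.58.1 fit with an intensity trend (R 4.3.3) held all 24 libraries on the log2(FPKM + 1) scale computed from the deposited values, and the 4 groups shared the estimate of spread. A feature was tested if 6 or more libraries reached 1 FPKM, which kept 13020 of 28450 features and all 7 transporters. Fold changes on this scale understate those of low genes. A two-sided p adjusted by the Benjamini-Hochberg method over all tested features was called under 0.05. For ratios within libraries, two-sided exact permutation tests were adjusted over 15 comparisons. Comparisons with a group in common share its libraries. The 7 genes, the lists and the tests were chosen with earlier results of these data known. Genes named from a list are among its 4 smallest p in a comparison, apart from Slc16a1, Ldha, Bsg, Vil1, Apoa4, Cela1, Lrp2, Slc34a1, Kap and genes below the filter, named after their values were seen. Some genes of the lists are not reported here by name. Genes most like a transporter are the 3 with the highest Pearson r that have an Ensembl ID and no predicted name. Promoters are from RefSeq (GRCm38.p6), matched by symbol. That build differs from those named for the files, and no coordinate was joined to the FPKM. Alternatives were a pseudocount of 0.1, no filter or one at 5 FPKM, scaling by median ratios or quantiles, a replicate block, fewer groups in the fit, and leaving out libraries. Counts of related genes without Gly wild-type libraries 1 and 5 were added after the data were seen.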

Additional observations from a re-analysis of the deposited data

Results flagged for a closer look

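In Gly wild type, Slc2a5 in library 5 was at 5.31 FPKM, further below the other 5 libraries (7.85 to 9.31 FPKM) than the spread of 6 values allows by Dixon's test at the 95% level. In Gly knockout, Slc5a10 in library 3 was at 108.0 FPKM, with 46.2 to 69.04 in the other 5. Chance flags about 1 in 20 groups of values, and 40 groups were examined. The response of Slc5a8 to Gly differed between genotypes by 1.47 log2 units (knockout minus wild type), and that of Slc2a5 by 0.97, both by the interaction term. Saline knockout enters both, and 5 of its 6 libraries lack Y-linked transcripts.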

How the results depend on the processing

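Over 9 alternative settings, 329 values of single genes kept their direction and their side of the threshold, 19 lost the call, 11 gained it and 12 changed sign. With single libraries left out, the numbers were 963, 19, 10 and 16. Of those that changed sign, 1 had been called, Slc5a1 between the saline groups, at -0.0155 without the 5 saline knockout libraries that lack Y-linked transcripts. The others were not called before or after. Without those 5 libraries they were Slc5a1 (0.57) and Slc5a8 (-0.67) under Gly in knockout, the interaction of Slc5a1 (0.13) and the ratio of Slc5a2 over Slc5a1 between the saline groups (0.41). With median-ratio scaling they were Slc5a8 under Gly in knockout (-0.070), Slc5a2 between Gly knockout and saline wild type (-0.22) and the interactions of Slc5a2 (0.14) and Slc2a2 (0.10). With quantile normalization they were Slc5a8 under Gly in knockout (-0.044) and the interactions of Slc5a2 (0.014) and Slc2a2 (0.067), and without Gly wild-type libraries 1 and 5 Slc5a1 between the genotypes under Gly (-0.0059). With single libraries left out, values ranged from -0.12 to 0.11 for Slc5a1 and from -0.023 to 0.23 for Slc5a8 under Gly in knockout, from -0.076 to 0.13 for Slc5a2 between Gly knockout and saline wild type, and from -0.11 to 0.090 for the interaction of Slc5a2. Leaving out the 5 libraries leaves 1 saline knockout library. It gave 0 transporters called by limma for Gly in the knockout (2 at an unadjusted p under 0.05), 0 between the saline groups (0 unadjusted) and 0 for the interaction (2 unadjusted). Over all features it gave 741 calls against 3837, 0 against 1379 (101 unadjusted) and 10 against 3457 (1478 unadjusted). The ratio differences that did not pass there were Slc5a8 over Slc5a12 under Gly in wild type (-0.83, adjusted exact permutation p = 0.0649) and between the saline groups (-0.43), and Slc2a2 over Slc2a5 under Gly in knockout (0.79), the last pair of which cannot pass with 1 library.

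Leaving out single libraries gave 5 to 7 transporters called for Gly in wild type, 2 to 4 for Gly in knockout, 3 to 4 between the saline groups, 4 to 5 between the genotypes under Gly, 3 to 4 between Gly knockout and saline wild type, and 2 to 3 for the interaction. Of all 13020 tested features, 7892 to 8687, 3080 to 4805, 817 to 2116, 3213 to 4263, 5236 to 6935 and 2918 to 4279 were called, in the same order. Ratio differences then ranged from -1.04 to -0.68 for Slc5a8 over Slc5a12 under Gly in wild type, from -0.81 to -0.45 for the same ratio between the genotypes under Gly, and from -0.67 to -0.44 for Slc5a2 over Slc5a1 between Gly knockout and saline wild type. Over all features, the calls between the saline groups were 817, 843 and 832 without saline knockout libraries 1, 2 and 6, 2116 without library 4, 2660 without Gly wild-type libraries 1 and 5, and 2746 with only the saline groups in the fit. Calls between the genotypes under Gly were 2168 with only those groups, against 3882, and those of the interaction 5719 without Gly wild-type libraries 1 and 5. The cause was not tested.

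With no filter, Slc2a5 under Gly in knockout (adjusted p = 0.0513) and Slc5a12 between Gly knockout and saline wild type (adjusted p = 0.0846) did not pass. With the replicate number as a block, 5 transporters passed for Gly in wild type, 3 for Gly in knockout, 3 between the saline groups, 4 between the genotypes under Gly, 4 between Gly knockout and saline wild type and 2 for the interaction, as without it. Correlations of same-numbered libraries lay between -0.37 and 0.30, and in 3 of 36 such pairs the library correlated best with the one of its own number. No counts came with the FPKM, so the precision that depth gives each value is unknown.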
